A study of Mus musculus with 6 samples.

Results

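Proteasome genes were taken from the arrays by name, as every name that begins with Psm, a letter from a to g and a number, control spots apart. The rule found 44 of 27962 gene names, measured by 67 of 41174 probes, and 43 of the 44 belong to the proteasome. The remaining name, Psmc3ip, matches by its spelling alone, since it encodes a protein of meiotic recombination. It is kept out of every count below, which leaves 65 proteasome probes, and its 2 probes differed by 0.26 and 0.29 (log2, knockout minus control). The proteasome names fall into 15 core genes, 17 cap genes, 5 immunoproteasome genes, 3 assembly chaperones of the cap and 3 genes for other activators and an inhibitor. No probe carries a Psmg name. The accessions of probes under older names place the core assembly chaperones Psmg1, Psmg2 and Psmg3 on the array, and these are given beside the members.

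The proteasome is the barrel-shaped protease that degrades proteins tagged with ubiquitin. Its core particle is a stack of rings of alpha subunits, which gate the entrance, around rings of beta subunits, of which Psmb5, Psmb6 and Psmb7 carry the proteolytic sites. A regulatory cap recognises ubiquitin, removes it, and unfolds the substrate with a ring of ATPases. In cells exposed to interferon gamma, Psmb8, Psmb9 and Psmb10 replace Psmb5, Psmb6 and Psmb7 and the PA28 activator of Psme1 and Psme2 is made. The resulting immunoproteasome produces peptides for presentation by class I molecules. In liver it is known to be abundant in immune cells and inducible in hepatocytes.

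The study compared livers of male mice, 10 weeks of age, in which the deacetylase SIRT1 had been deleted from the liver (SIRT1 LKO, called LKO here) with livers of Lox control mice. All were on a background of 95% C57BL/6, were fed chow freely and were killed at 4 pm. The sources used here do not give the Cre driver or the deleted exons. Each array received RNA from a pool of 2 animals, with 3 pools per genotype, so p-values measure the spread between pools and bulk RNA cannot tell fewer cells of a type from less RNA per cell. Values are log2 intensities with the 75th percentile of the array subtracted, and a probe's value has no meaning against another probe's. A difference is LKO minus control.

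Facts about the arrays touch every result. The 3 control pools lay on a slide that held no LKO array, LKO pools 1 and 2 shared another and LKO pool 3 lay on its own slide. No slide held both genotypes, so slide and genotype cannot be told apart in any comparison. Where LKO pool 3 is left out, each genotype lay on 1 slide, which applies to every result given without that pool. Array-wide 75th percentiles were 1004.9 to 1056.1 in 5 arrays and 1288.7 in LKO pool 3. For that pool the deposited value table disagreed with the scanner file: 0.853% of probes agreed within 1%, against 99.8% in each of the other 5. Scanner values are the main ones, and values with the table for this pool, or without the pool, stand beside the results that turn on them. Of the 2 Sirt1 probes, 1 differed by -0.24 (limma, adjusted p = 0.243) and the other by -0.02. With the table for LKO pool 3 these probes differed by -0.29 and -0.19, and without that pool by -0.29 and -0.13. Without the deleted exons it is not known whether either lies in them, so they do not check the labels. Hepatocyte markers were present, with 9 of 9 tested and none called.

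Sequences are shown for the probes on which the results below turn. Each is a deposited probe of 60 bases, 5′ to 3′, with coordinates of the files on mm7. The Psmd1 probe (chr1:86027149-86027208, plus strand) is the member with the smallest p. The Psmb8 probe (chr17:32280725-32281049, plus strand) and the Psmb9 probe (chr17:32262147-32262206, minus strand) report catalytic immunoproteasome subunits, and the Psmb8 probe spans more genome than its own length.
Psmd1: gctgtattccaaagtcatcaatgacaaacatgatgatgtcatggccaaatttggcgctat
Psmb8: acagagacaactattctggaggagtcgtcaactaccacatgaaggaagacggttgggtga
Psmb9: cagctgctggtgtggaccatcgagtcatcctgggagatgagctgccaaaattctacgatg

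Psme2 was measured by 2 probes that the files name Psme2b-ps, after a processed copy of the gene. Both carry the accession NM_011191, and their mm7 positions are chr14:50455438-50455635 and chr14:50454846-50454905 on the minus strand. Signal from the gene and from its near-identical copy cannot be told apart here, so Psme2 values are uncertain in that respect.
Psme2 first probe: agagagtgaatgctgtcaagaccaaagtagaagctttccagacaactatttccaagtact
Psme2 second probe: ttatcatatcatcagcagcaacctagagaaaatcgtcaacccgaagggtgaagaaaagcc

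Psmc2 and Psmd7 are shown with a pair of probes each, because the probes of 1 gene gave different answers. In each pair the first probe was designed on a RefSeq transcript and the second on a cDNA clone. For Psmc2 the positions are chr5:20841197-20841349 and chr5:20835442-20835501 (plus strand), and for Psmd7 chr8:106181359-106181418 and chr8:106187817-106187876 (minus strand). None of the 3 forward reading frames of the Psmd7 clone probe is free of a stop codon (0 open frames, against 2 in the RefSeq probe). For Psmc2 the order is the other way, with 2 open frames in the clone probe and 1 in the RefSeq probe.
Psmc2 RefSeq probe: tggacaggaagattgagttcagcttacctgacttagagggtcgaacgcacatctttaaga
Psmc2 clone probe: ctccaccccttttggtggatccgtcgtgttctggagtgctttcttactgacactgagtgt
Psmd7 RefSeq probe: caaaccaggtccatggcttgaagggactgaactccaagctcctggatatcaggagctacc
Psmd7 clone probe: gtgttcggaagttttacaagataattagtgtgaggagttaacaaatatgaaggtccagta

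No proteasome gene passed the test between the genotypes. Of the 65 proteasome probes, 63 were tested, being well above background on each array of 1 genotype or both, and 0 of them passed an adjusted p of 0.05 (limma, Benjamini-Hochberg over 23591 probes), where 0.0636% of all tested probes passed, or 15 probes. At an unadjusted p under 0.05 there were 6 of 63, against 21.2% of all tested probes. Among the 6 is the Psmc2 clone probe, which was tested only through the LKO arrays. The clone probes of Psmd11 and Psme4 were not well above background on any array.

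The remaining counts use the 62 proteasome probes well above background on all 6 arrays. The Psmc2 clone probe is left out of them because it passed only through the LKO arrays. Among the 62, 29 were higher and 33 lower in LKO, the median difference was -0.02 and the range -0.53 to 0.63; the median over all 21193 probes above background on every array was 0.01. The 95% interval of the difference lay within 1.5-fold in both directions for 51 of the 62, against 55.4% of all tested probes. Shares of all probes, here and below, are over tested probes, which include dim ones above background on every array of only 1 genotype. Of the 62, 57 were above the 75th percentile on every array, against 45.2% of the 21193. The shares are therefore not matched to the 62 in intensity. At an unadjusted p under 0.05, 0 of the 62 were higher and 5 lower, against 10.7% and 10.5% of all tested probes. LKO values lay wholly above the controls for 4 probes (14.9% of all probes) and wholly below for 7 (14% of all), a total of 11, where 28.9% of all probes had such separate groups. These counts depend on the source of LKO pool 3. Of the 62, 36 were higher and 26 lower with the value table, 4 higher and 4 lower at an unadjusted p under 0.05 (14.7% and 11.5% of all probes), and 22 had separate groups (34.1% of all). Without that pool 37 were higher and 25 lower, and 11 had an unadjusted p under 0.05 (30.6% of all). Control pools were close to each other, with a median SD of 0.06 over the 62 (0.12 over the 21193). LKO pools were less so, with 0.15 (0.16 over the 21193).

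**Figure D1:**
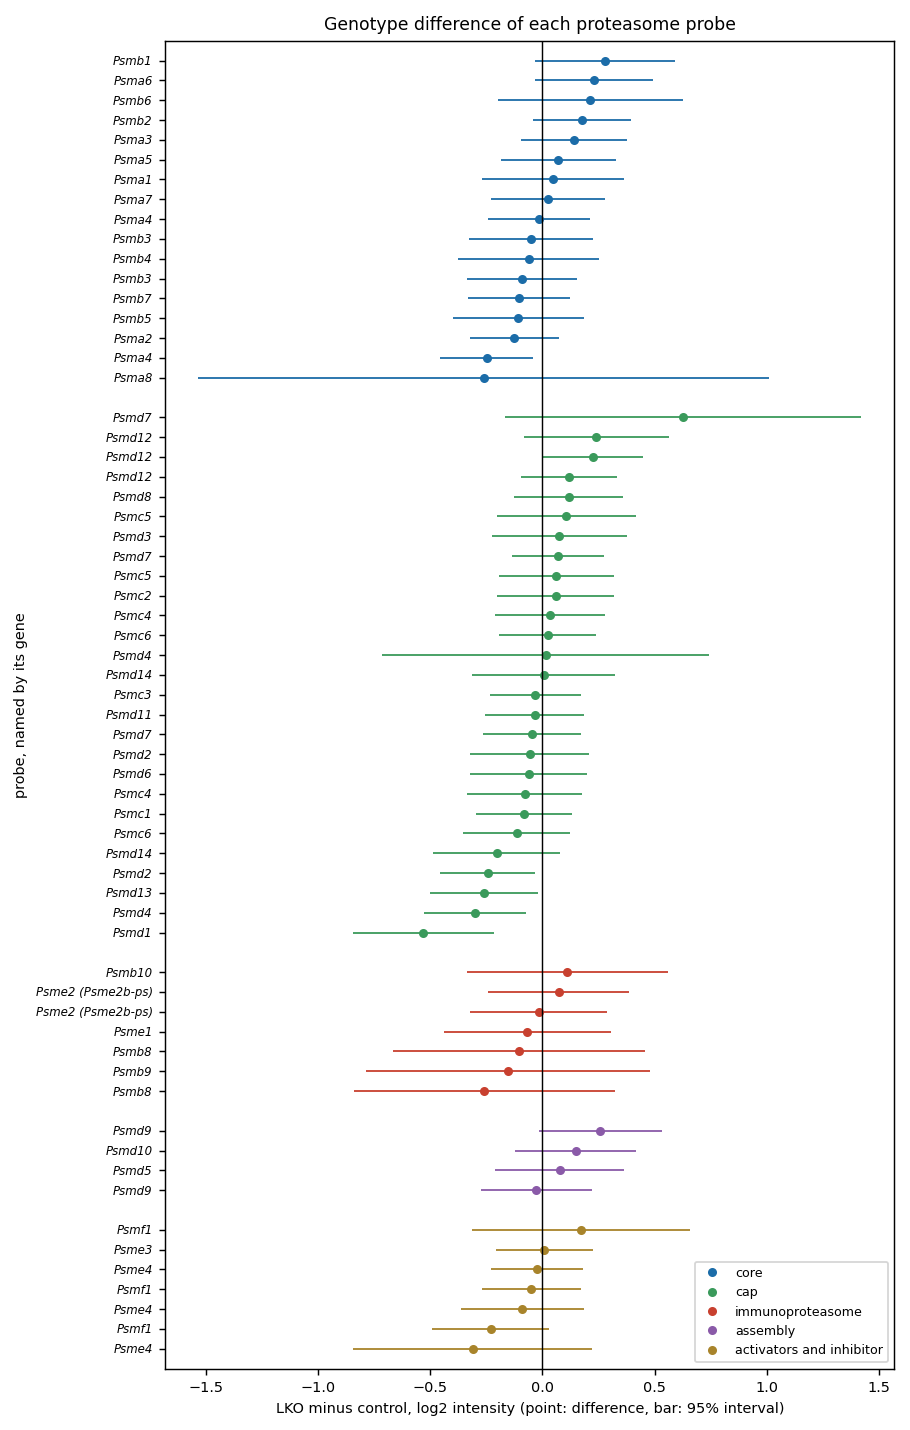
Difference between LKO and control livers (x axis, log2 intensity) for each of the 62 proteasome probes above background on all 6 arrays, 1 line per probe, named by gene and coloured by group. Points are differences and bars 95% intervals; differences run from -0.53 to 0.63 on both sides of 0, and none passed the adjusted threshold.

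The alpha subunits, which form the outer rings and the gate of the core, were spread on both sides of 0. Of their 9 probes for 8 genes, 5 were higher and 4 lower, with a median difference of 0.02. The median was 0.11 with the table and 0.14 without LKO pool 3, with 6 higher and 3 lower in each. Psma4 was measured at 3.91, 3.96 and 4.01 in the control pools and at 3.67, 3.74 and 3.72 in the LKO pools. Each LKO pool was below each control pool, and the difference was -0.25 (SE 0.09), with an adjusted p of 0.178 in limma. A second Psma4 probe differed by -0.01, with overlapping groups.

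Psma6 lay on the other side, at 4.85, 4.90 and 4.79 in the controls and 5.23, 5.08 and 4.93 in the LKO pools. All LKO pools were above all controls, for a difference of 0.23 (SE 0.11; limma, adjusted p = 0.281). Psma2 values were 5.70, 5.73 and 5.75 in controls and 5.62, 5.59 and 5.60 in LKO, again separate groups, with a difference of -0.13 (SE 0.08; limma, adjusted p = 0.420). Neighbouring subunits of the same ring thus had separate groups in opposite directions without passing the test.

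Psma3 stood at 4.62, 4.57 and 4.56 in controls and 4.76, 4.81 and 4.59 in LKO, with LKO pool 3 inside the control range and a difference of 0.14 (SE 0.10). Psma1, Psma5 and Psma7 differed by 0.05, 0.07 and 0.02. Psma5 differed by 0.14 with the table, with separate groups, and by 0.16 without LKO pool 3. Psma8, the alternative alpha subunit known from testis, had the widest interval of the core probes. Its values were -2.54, -1.76 and -1.35 in controls and -1.48, -1.67 and -3.28 in LKO, and its difference of -0.26 had an interval of -1.53 to 1.01. It was 0.11 with the table and 0.31 without LKO pool 3.

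The beta subunits, which hold the proteolytic sites of the core, had 3 probes higher and 5 lower of 8, with a median of -0.06. With the table, 5 were higher and 3 lower, with a median of 0.07. Without LKO pool 3 the counts were also 5 and 3, with a median of 0.04. Psmb1 was measured at 5.06, 5.09 and 5.19 in controls and 5.55, 5.48 and 5.15 in LKO. LKO pools 1 and 2 were above all controls while LKO pool 3 lay among them, for a difference of 0.28 (SE 0.13, limma, adjusted p = 0.271). With the table, where LKO pool 3 is at 5.28 and the groups are separate, Psmb1 differed by 0.32 (limma, adjusted p = 0.117). Without the pool it differed by 0.40 (limma, adjusted p = 0.0631). Psmb2, at 1.82, 1.97 and 1.95 in controls and 2.13, 2.08 and 2.06 in LKO, had separate groups and a difference of 0.18 (SE 0.09, limma, adjusted p = 0.316). Its difference was 0.12 with overlapping groups with the table, and 0.19 without LKO pool 3.

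The 3 proteolytic subunits did not share a direction. Psmb5, the chymotrypsin-like subunit, stood at 4.71, 4.90 and 4.84 in controls and 4.80, 4.82 and 4.51 in LKO, a difference of -0.11 (95% interval -0.40 to 0.19), which was -0.015 with the table and -0.0048 without LKO pool 3. Psmb6, the caspase-like subunit, was at 5.56, 5.52 and 5.46 against 5.88, 5.95 and 5.34, a difference of 0.21 (-0.20 to 0.63). Its LKO pools 1 and 2 were above every control and LKO pool 3 below every control. With the table, where LKO pool 3 is at 5.81 and the groups are separate, it differed by 0.37 (limma, adjusted p = 0.0712), and without the pool by 0.40 (limma, adjusted p = 0.0594).

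Psmb7, the trypsin-like subunit, was at 3.79, 3.95 and 3.97 in controls and 3.76, 3.80 and 3.84 in LKO, a difference of -0.10 (-0.33 to 0.13). Groups overlapped for Psmb5, Psmb6 and Psmb7 in the scanner values. The structural subunits Psmb3 and Psmb4 differed by -0.09 and -0.05 (2 Psmb3 probes) and by -0.06. With the table the Psmb3 probe at -0.05 was at 0.08 and Psmb4 at 0.06. With the value table in place of the scanner file for LKO pool 3, the median of all 17 core probes was 0.08 instead of -0.01.

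In the base of the cap, 6 probes were higher and 8 lower of 14, with a median of -0.04. Psmd1 and Psmd4, which had the smallest p when each gene was read by its probe with the highest mean, lay here. Psmd1, a large scaffold subunit of the base, was measured at 3.43, 3.41 and 3.42 in the control pools and at 2.77, 2.74 and 3.15 in the LKO pools. All LKO pools were below all controls, which differed among themselves by an SD of 0.0078, and the difference was -0.53 (SE 0.13, 95% interval -0.85 to -0.22), or 1.45-fold. Its adjusted p was 0.114 in limma. Psmd1 was the only member called under any alternative run: with the value table, in which LKO pool 3 is at 2.96, the difference was -0.59 (limma, adjusted p = 0.0489, where 1.25% of all probes passed), and without LKO pool 3 it was -0.66 (limma, adjusted p = 0.0452, where 2.87% passed).

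Psmd4, a ubiquitin receptor of the cap, stood at 4.70, 4.80 and 4.74 in controls and 4.36, 4.55 and 4.43 in LKO. Its groups were separate, with a difference of -0.30 (SE 0.09; limma, adjusted p = 0.155). The second Psmd4 probe differed by 0.01 with an interval of -0.71 to 0.74. Psmd2, another scaffold subunit of the base, had 1 probe at -0.25 with separate groups (limma, adjusted p = 0.190) and another at -0.06 with overlapping groups. The latter was at 0.06 with the table and 0.03 without LKO pool 3.

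The ATPases that form the unfolding ring stayed near 0. Psmc1 and Psmc3 differed by -0.08 and -0.03. The RefSeq probe of Psmc2 differed by 0.06, Psmc4 probes by -0.08 and 0.04, Psmc5 probes by 0.11 and 0.06 and Psmc6 probes by 0.02 and -0.12. All 9 of these ATPase probes had overlapping groups in the scanner values, where 28.9% of all probes had separate groups. With the table the Psmc6 probe at -0.12 became -0.17, with separate groups. The Psmc2 clone probe is not among the 9 and is given below.

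In the lid of the cap, which holds the enzyme that removes ubiquitin, 8 probes were higher and 5 lower of 13, with a median of 0.07. Psmd13 was measured at 1.90, 2.04 and 2.15 in controls and 1.82, 1.75 and 1.75 in LKO. Its groups were separate, with a difference of -0.26 (SE 0.10; limma, adjusted p = 0.213). Psmd14, the deubiquitinating subunit, was at 4.32, 4.43 and 4.41 against 4.33, 4.23 and 3.99, a difference of -0.20 with an interval of -0.49 to 0.08, and its second probe differed by 0.01. The first was -0.063 with the table and -0.11 without LKO pool 3.

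Psmd12, a structural subunit of the lid, was at 5.25, 5.25 and 5.31 in controls and 5.42, 5.44 and 5.31 in LKO, a difference of 0.12 (SE 0.09). Its other probes differed by 0.24 (0.37 without LKO pool 3) and 0.22 (0.13 with the table), so its 3 probes had the same sign. LKO pool 3 of the probe given above was level with the highest control, at 5.31. Psmd3, Psmd6 and Psmd8 differed by 0.08, -0.06 and 0.12, and the tested Psmd11 probe by -0.03. Over the 27 cap probes the median was 0.01.

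**Figure D2:**
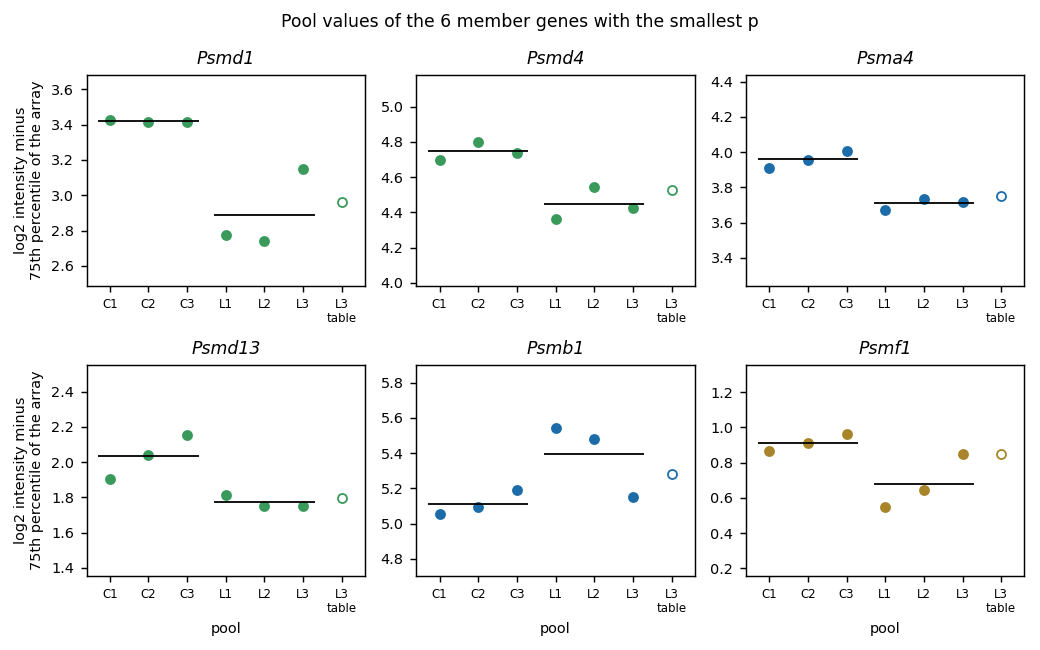
Log2 intensity minus the 75th percentile (y axis) in each pool (x axis; C, control; L, LKO) for the 6 member genes with the smallest p, each read by its probe with the highest mean. Filled points are scanner values, the open point is LKO pool 3 from the value table and lines are group means. Psmd1, Psmd4, Psma4, Psmd13 and Psmf1 are lower in every LKO scanner value than in every control. Psmb1 is not separate in the scanner values and is separate with the table.

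Chaperones that assemble the base, Psmd5, Psmd9 and Psmd10, had 3 probes higher and 1 lower of 4, with a median of 0.11. Psmd9 had 1 probe at 0.26 with separate groups (0.15 and overlapping with the table) and another at -0.03. Psmd10, also known as the oncoprotein gankyrin, differed by 0.15 and Psmd5 by 0.08 (0.24 and 0.18 without LKO pool 3), with LKO pool 3 the lowest of the 6 pools in both. Among the core chaperones outside the name rule, Psmg1 differed by 0.03, Psmg3 by -0.02 and the probes of Psmg2 by -0.08 and -0.16.

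Of the other regulators, Psmf1, an inhibitor of the core, had the smallest p. Its most intense probe was at 0.87, 0.91 and 0.96 in controls and 0.55, 0.64 and 0.85 in LKO. The groups were separate, with LKO pool 3 nearest the controls, and the difference was -0.23 (SE 0.11; limma, adjusted p = 0.277). The other Psmf1 probes differed by -0.05 and 0.17, the latter by 0.37 without LKO pool 3. Psme3, the nuclear PA28 gamma activator, differed by 0.01, and Psme4, the PA200 activator, by -0.03, -0.31 and -0.09 over its probes above background. The 7 probes of this group had a median of -0.05.

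No immunoproteasome gene differed between the genotypes past the threshold, and in all of them LKO pool 3 stood apart from LKO pools 1 and 2. In every one of their 7 probes LKO pool 3 was the lowest of the 6 pools (7 of 7, where 21.5% of all probes had this order), and LKO pools 1 and 2 were near or above the controls. When LKO pool 3 was read from the value table, it was the highest of the 6 pools in 7 of 7 (22.1% of all probes). No immunoproteasome probe had separate groups in the scanner values, and 4 had with the table, where 34.1% of all probes did. The median of the 7 differences was -0.07 with the scanner file, 0.26 with the table and 0.11 when that pool was left out, so its direction depends on the source of that array. None was called in any of the 3.

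Psmb8, the induced counterpart of Psmb5, was measured at 3.55, 3.30 and 3.09 in controls and at 3.57, 3.32 and 2.74 in LKO, with LKO pool 3 at 4.12 in the value table. Its difference was -0.11 (95% interval -0.67 to 0.46) with the scanner file, 0.36 with the table and 0.13 without the pool. The second Psmb8 probe differed by -0.26, 0.26 and -0.02 in the same order. LKO pool 1 of the first probe lay just above the highest control, and the other values of LKO pools 1 and 2 lay within the control range.

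Psmb9, the counterpart of Psmb6, was at 3.40, 3.13 and 2.63 in controls and 3.09, 3.17 and 2.45 in LKO, with 4.03 for LKO pool 3 in the table. It differed by -0.15 (-0.79 to 0.48), by 0.38 with the table and by 0.08 without the pool. Its control pools spread almost as widely as its LKO pools, with SDs of 0.39 and 0.40.

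Psmb10, the counterpart of Psmb7, had tight controls at 4.86, 4.82 and 4.87 and LKO values of 5.14, 5.21 and 4.54, with 5.43 in the table. LKO pools 1 and 2 were above every control and the scanner value of LKO pool 3 below every control. The difference was 0.11 (-0.34 to 0.56), 0.41 with the table (limma, adjusted p = 0.0817) and 0.32 without the pool (limma, adjusted p = 0.0778).

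The PA28 activator genes followed the same order of pools. Psme1 was at 5.56, 5.60 and 5.62 in controls and 5.68, 5.71 and 5.20 in LKO, with 5.82 in the table, and differed by -0.07 (-0.44 to 0.30), 0.14 with the table and 0.10 without the pool. The second Psme2 probe was at 5.95, 5.99 and 6.02 in controls and 6.09, 6.10 and 5.73 in LKO, with 6.26 in the table, and differed by -0.02, 0.16 and 0.11. The first Psme2 probe differed by 0.07, 0.21 and 0.20. Both genes had LKO pools 1 and 2 above every control.

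**Figure D3:**
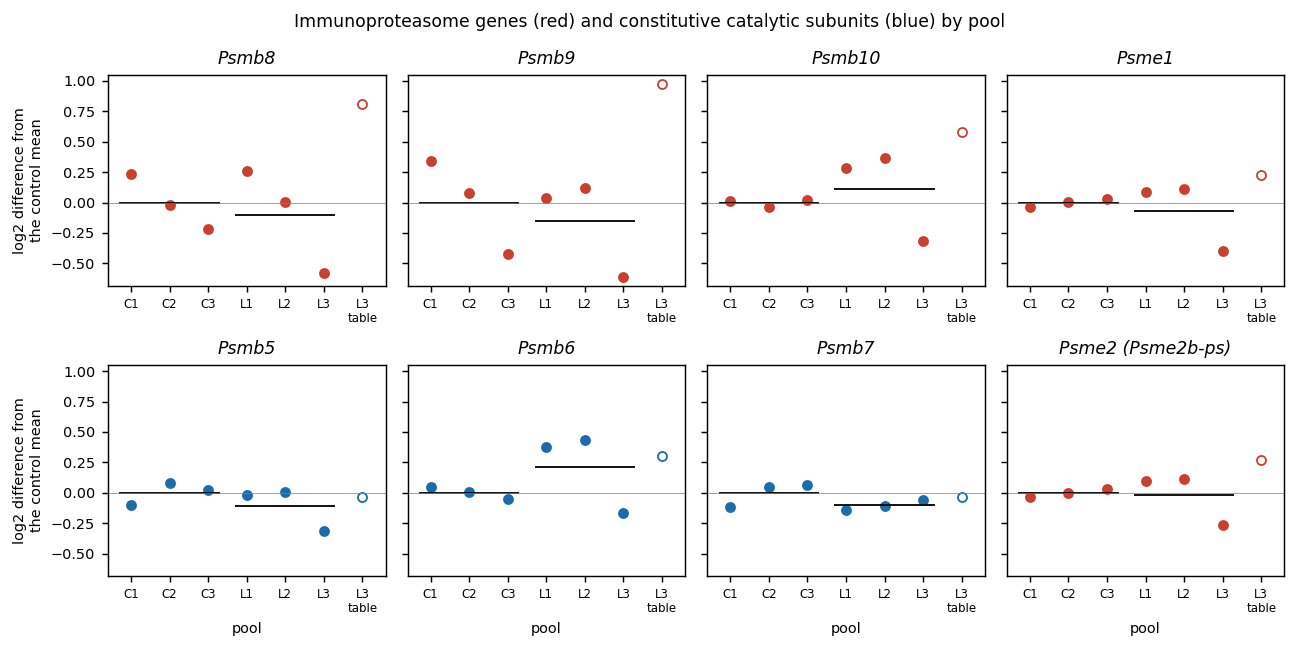
Log2 difference from the control mean (y axis) in each pool (x axis; C, control; L, LKO) for 5 immunoproteasome genes in red and 3 constitutive catalytic subunits in blue. Filled points are scanner values, the open point is LKO pool 3 from the value table and lines are group means; in the red panels LKO pool 3 is the lowest point in the scanner file and the highest in the value table.

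The sources of LKO pool 3 were further apart for these genes than for the core or the cap. The value table was above the scanner file for LKO pool 3 by a median of 0.89 over the 7 immunoproteasome probes (0.42 to 1.58), by 0.13 over the core, by 0.05 over the cap and by 0.03 over all probes above background on every array. Relative to the control mean, the immunoproteasome median was 0.10 and 0.12 in LKO pools 1 and 2, -0.40 in LKO pool 3 by the scanner file and 0.58 by the table. The corresponding core medians were 0.03, 0.08, -0.13 and 0.02. LKO pool 3 was also the lowest pool in 32 of all 62 proteasome probes by the scanner file.

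**Figure D4:**
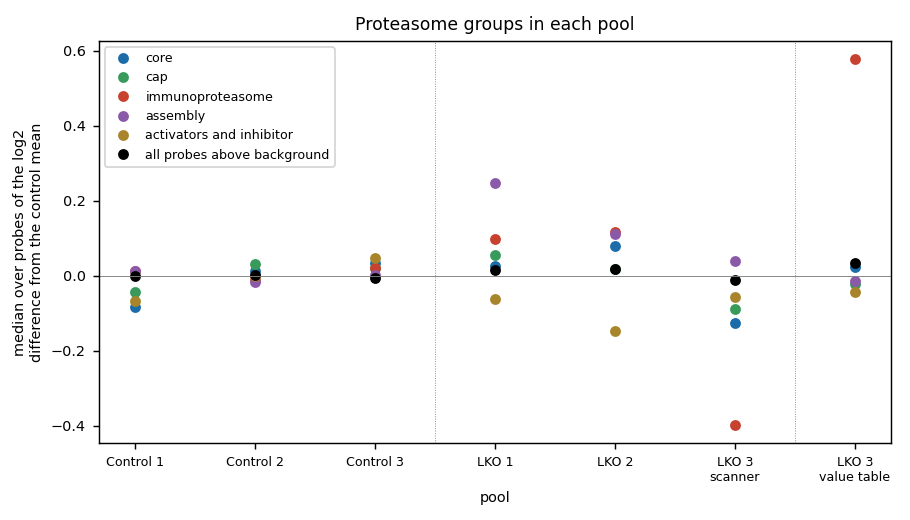
Median over the probes of each proteasome group of the log2 difference from the control mean (y axis) in each pool (x axis), with all probes above background in black. The immunoproteasome (red) is at -0.40 in LKO pool 3 by the scanner file and at 0.58 by the value table, further from 0 than any other group in either.

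Genes of the same interferon gamma response and markers of immune cells were read in the same pools. Of 15 tested interferon gamma targets, 8 were higher and 7 lower, 0 were called, and the median was 0.00 with the scanner file, 0.34 with the table and 0.16 when LKO pool 3 was left out. LKO pool 3 was the lowest pool in 8 of them by the scanner file and the highest in 12 by the table. Their summed level, in multiples of the 75th percentile of the array, was 232 to 242 in controls, 246 and 253 in LKO pools 1 and 2, and 195 or 328 in LKO pool 3 by source. Such sums, here and for the markers below, weigh the brightest probes most and can only be compared between pools. The brightest of this list were B2m and Iigp1, and Iigp1 was at 5.63 or 6.73 (log2) in LKO pool 3 by source. Within this list the smallest p belonged to Tap1, a subunit of the peptide transporter for class I molecules, at -0.69 (limma, adjusted p = 0.147), and to Erap1, which trims peptides, at 0.28 (limma, adjusted p = 0.171). Tap1 differed by -0.38 with the table (limma, adjusted p = 0.484) and by -0.70 without LKO pool 3. Erap1 differed by 0.28 and 0.30 in the same order.

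Markers of Kupffer cells and macrophages gave 2 higher and 11 lower of 13. The median was -0.17 by the scanner file, 0.22 by the table and -0.07 without LKO pool 3. Their summed level was 81.2 to 134 in controls, 94.0 and 110 in LKO pools 1 and 2, and 89.9 or 171 in LKO pool 3. LKO pool 3 was lowest in 4 of the 13 by the scanner file and highest in 12 by the table. All 13 were above background on every array, among them Adgre1, Clec4f and Timd4.

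For T and NK cells 8 of 12 markers were tested, the others being Cd8a, Gzma, Gzmb and Trac, and 4 were higher and 4 lower. Their summed level was 1.52 to 2.14 in controls, 1.82 and 1.70 in LKO pools 1 and 2, and 1.20 or 2.74 in LKO pool 3. Of 6 B cell markers 5 were tested and all were lower by the scanner file, with 0 called. Their median was -0.34, against 0.02 with the table and -0.34 without LKO pool 3. Among them Ighm, at -0.08, was at 0.51 with the table and 0.38 without the pool. Of 5 dendritic cell markers 3 were tested and all were lower (median -0.14, 0.05 with the table and -0.12 without LKO pool 3). The part of these cells in the immunoproteasome values was not tested.

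Hepatocyte markers had a median of 0.09 (0.18 with the table) and endothelial markers of 0.02 (-0.10 with the table), with none called among the 9 and 5 tested. Apob had the largest difference of the 9, at 0.46, with control pool 1 at 4.60 and the other controls at 6.66 and 6.74. The immunoproteasome order of pools, with LKO pool 3 lowest, held for 3 of the 9 hepatocyte markers.

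Probes of 1 gene often differed in direction. Of 15 genes with at least 2 probes above background on all 6 arrays, 8 had probes of opposite sign, while in 8 the probes lay within 0.20 of each other, and the median spread was 0.19. Psmd7, a structural subunit of the lid, had the widest spread, at 0.67. Its clone probe was at -2.89, -2.85 and -3.20 in controls and -2.59, -2.89 and -1.58 in LKO, with -2.62 for LKO pool 3 in the table. The difference of 0.63 (95% interval -0.17 to 1.42) was 0.28 with the table and 0.24 without that pool. Both RefSeq probes of Psmd7 differed less, by 0.07 and -0.05.

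The Psmc2 clone probe also differed from the RefSeq probe of its gene. It was at -4.64, -4.88 and -5.25 in controls and -4.22, -4.26 and -3.54 in LKO, well above background on 4 of 6 arrays, with -4.33 for LKO pool 3 in the table. Its difference was 0.91 (limma, adjusted p = 0.126) and was 0.65 with the table and 0.68 without LKO pool 3, with separate groups under both sources. The probe was above background on 1 control array and 3 LKO arrays, so it was tested only through the group where it was higher. Its p and separate groups are therefore not read as a difference between the genotypes. The RefSeq probe of the same gene, at 5.13, 5.18 and 5.13 against 5.34, 5.26 and 5.03, differed by 0.06.

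Factors that work with the proteasome but carry other names were read as well, and none was called. Of 11 proteasome-associated factors measured, which include the maturation factor Pomp and the ubiquitin receptor Adrm1, 7 were higher and 4 lower, with a median of 0.03. The smallest p belonged to Ube3c, a ubiquitin ligase of the proteasome, at -0.33 (limma, adjusted p = 0.187) and Uchl5, a deubiquitinase of the cap, at 0.21 (limma, adjusted p = 0.299). Pomp differed by -0.04.

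Shuttles that carry substrates and unfolding factors gave 5 higher and 6 lower of 11, with a median of -0.10. Ubqln4 differed by -0.35 (limma, adjusted p = 0.125) and Ubqln2 by -0.34 (limma, adjusted p = 0.279), and the unfoldase Vcp by 0.01. Of the enzymes that activate ubiquitin, Uba1, the main one, differed by -0.43 (limma, adjusted p = 0.129) and Uba6 by 0.03.

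Transcription factors of proteasome genes gave 6 higher and 3 lower of 9, with a median of 0.06. Nfe2l1, the factor known to induce proteasome genes when proteasome activity falls short, was at 4.03, 4.00 and 3.99 in controls and 4.33, 4.24 and 4.03 in LKO, a difference of 0.19 (limma, adjusted p = 0.351). Its LKO pool 3 lay at the top of the control range. Keap1, the adaptor that targets Nfe2l2 for degradation, was at 3.69, 3.64 and 3.50 in controls and 2.95, 3.04 and 3.23 in LKO, with separate groups and a difference of -0.54 (limma, adjusted p = 0.0954). Of the value table and the omission of LKO pool 3, it was called in the latter, at -0.61 (limma, adjusted p = 0.0492), and not in the former, at -0.53 (limma, adjusted p = 0.0658). Nfe2l2 itself differed by 0.03.

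Promoters were searched for letters of known response elements on both strands, from 250 bases before to 50 bases after each annotated start, in RefSeq sequence of GRCm38.p6. A promoter was found for 36 member genes (39 promoters). The antioxidant response element core TGACNNNGC was present in 6 of the 39 (15.4%), against 12.4% of all 32851 promoters, and the CCAAT box in 13 (33.3%, against 37.4%). The gamma-activated site TTCNNNGAA was present in 2 (5.13%, against 8.3%) and the interferon-stimulated response element core in 4 (10.3%, against 3.44%). These matches describe letters in a window and do not show a site in use.

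Promoters of 3 immunoproteasome genes, all lowest in LKO pool 3 by the scanner file, and of Psmb5, whose promoter holds the antioxidant letters, are shown 5′ to 3′ on the strand of the gene, with the match in capitals. Psmb8 (chr17:34197945-34198244, plus strand) holds a TTCNNNGAA match at position -97 from its start, and Psmb9 (chr17:34187281-34187580, minus strand) a CCAAT box on the opposite strand at -8. Psme1 (chr14:55578244-55578543, plus strand) holds the interferon-stimulated core on the opposite strand at 9, and Psmb5 (chr14:54617946-54618245, minus strand) TGACNNNGC at -47.
Psmb8 promoter: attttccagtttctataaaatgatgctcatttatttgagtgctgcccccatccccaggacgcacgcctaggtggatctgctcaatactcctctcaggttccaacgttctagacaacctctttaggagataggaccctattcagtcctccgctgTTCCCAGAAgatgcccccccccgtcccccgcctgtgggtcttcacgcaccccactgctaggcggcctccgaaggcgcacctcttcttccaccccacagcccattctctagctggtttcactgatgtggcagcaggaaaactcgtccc
Psmb9 promoter: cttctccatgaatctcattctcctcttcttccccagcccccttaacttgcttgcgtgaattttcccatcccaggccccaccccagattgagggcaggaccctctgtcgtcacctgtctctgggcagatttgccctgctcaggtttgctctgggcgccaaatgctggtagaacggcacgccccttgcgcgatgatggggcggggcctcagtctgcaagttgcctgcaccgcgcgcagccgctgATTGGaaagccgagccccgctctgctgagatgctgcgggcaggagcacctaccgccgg
Psme1 promoter: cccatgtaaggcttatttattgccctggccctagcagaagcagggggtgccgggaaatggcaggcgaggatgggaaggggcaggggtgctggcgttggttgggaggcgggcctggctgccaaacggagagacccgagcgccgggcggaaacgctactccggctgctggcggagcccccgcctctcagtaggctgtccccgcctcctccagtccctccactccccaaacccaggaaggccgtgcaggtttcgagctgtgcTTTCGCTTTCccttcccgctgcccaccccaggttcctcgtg
Psmb5 promoter: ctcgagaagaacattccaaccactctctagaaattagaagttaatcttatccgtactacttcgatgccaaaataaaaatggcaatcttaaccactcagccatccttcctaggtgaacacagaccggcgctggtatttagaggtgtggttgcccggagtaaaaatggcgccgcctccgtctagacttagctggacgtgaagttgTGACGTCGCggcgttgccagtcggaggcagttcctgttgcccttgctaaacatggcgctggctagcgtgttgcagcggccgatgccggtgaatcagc

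The TGACNNNGC match was found in Psmb5, Psmb6, Psmc6, Psmd12, Psmd9 and Psme4, whose probes lay on both sides of 0, between -0.31 and 0.26. The interferon-stimulated core was found in Psmb3, Psmd4, Psmd9 and Psme1. TTCNNNGAA was found in Psmb8 and Psmd2, whose 4 probes were all below 0 by the scanner file. With the table both Psmb8 probes and the Psmd2 probe at -0.06 were above 0.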

How the data were processed

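Liver RNA of 6 pools (3 control, 3 LKO) was read on 1-colour Agilent arrays from 500 ng of Cy3-labelled material, per the labels' protocols. The scanner files hold processed spot intensity, background-subtracted and detrended within the array by Agilent Feature Extraction 9.5, per the file headers and the submitters' processing notes. The deposited value table holds linear intensity made with the Rosetta Resolver error model, per the labels. Well-above-background, outlier and saturation flags (0 or 1, unit other) were deposited in the scanner files.

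Here control spots were left out, outlier spots set missing, spots of a probe averaged after log2, and each array's 75th percentile subtracted. Tested probes were well above background on each array of 1 genotype or both. The genotype difference was fitted per probe with limma 3.58.1 (lmFit, eBayes) in R 4.3.3. Tests were two-sided and adjusted by Benjamini-Hochberg over 23591 probes, with a threshold of 0.05. The steps were tested on simulated data. Accessions of 56 of the 67 probes matched by name (Psmc3ip included) were found, versions dropped, in the RefSeq genes of GRCm38.p6. No genome was used here, and exons of probes are not stated. Figures were drawn with matplotlib 3.10.9.

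The members, lists and tests were chosen with earlier results of these data known. Every member gene is named. Pool values are given for the 12 genes with the smallest p, for the immunoproteasome and for Psmb5, Psmb6 and Psmb7, using the probe with the highest mean, and of each related list the 2 genes with the smallest p are named. Some genes of these lists are not reported here. The probes of Psmc2 and Psmd7 given by pool, Psma8, Apob, Nfe2l2, B2m and Iigp1 were added after their values were seen. Alternatives were normexp background correction (offset 50), quantile normalization, median centring, other filters, outlier spots kept, 1 probe or the mean of probes per gene, an intensity trend with robust variance, the slide as a random block, a replicate block, the value table, and each pool left out. Extending the value table and the omission of LKO pool 3 to the subgroup medians, related lists and markers was chosen after seeing the data.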

Additional observations from a re-analysis of the deposited data

How the results depend on the processing

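The number of proteasome probes called stayed at 0 under every alternative except the value table, where it was 1, and the omission of single pools, where it ran from 0 to 1; both calls were Psmd1. Over all probes the count of 15 became 0 with normexp, with no filter on dim probes, with the slide as a random block and with a replicate block, 24 with 1 probe per gene or the mean of a gene's probes, 49 with probes above background on all 6 arrays, 91 with an intensity trend and robust variance, 296 with the value table, and 0 to 676 when 1 pool was left out. The 676 came without LKO pool 3, where each genotype lay on 1 slide. The replicate numbers do not pair the pools: residuals of same-numbered pools correlated at 0.009, -0.043 and -0.093 across probes. Of the subgroup medians, cap moved to -0.10 and assembly to 4e-04 with normexp, and core to 0.083 and immunoproteasome to 0.26 with the value table. Of 360 comparisons of 20 named genes with 18 alternatives, 344 kept direction and side of the threshold, 2 were Psmd1 passing it, and 14 reversed, all in the immunoproteasome. With the value table Psmb8 became 0.36, Psmb9 0.38, Psme1 0.14 and Psme2 0.16. Psmb10 became -0.020 with normexp and Psme2 0.029 with the mean of probes. With 1 pool left out, Psmb8 ran from -0.29 to 0.13, Psmb9 from -0.36 to 0.076, Psmb10 from -0.015 to 0.32, Psme1 from -0.16 to 0.10 and Psme2 from -0.082 to 0.11. Omitting LKO pool 3 reversed Psmb8, Psmb9, Psme1 and Psme2, control pool 1 Psmb8 (0.01) and Psmb9 (0.02), control pool 3 Psme2 (0.0003) and LKO pool 2 Psmb10. The cause was not tested. The number of arrays limits the precision.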
